A study of Mus musculus with 12 samples.

Results

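The genes described here are the Hox genes of the 4 mouse clusters, Hoxa, Hoxb, Hoxc and Hoxd, measured in embryonic lung after loss of Yy1 or of Dicer. A gene was a member when a probe set carried its symbol alone and the symbol was Hoxa, Hoxb, Hoxc or Hoxd followed by a paralog number. By this rule 36 of the 22180 measured genes were members, 9 in Hoxa, 10 in Hoxb, 9 in Hoxc and 8 in Hoxd. All 36 matched a RefSeq gene by Entrez identifier. Hoxa11 and Hoxd4 stood only on probe sets that name several genes and were not members. The rule used symbols and no measured value, although the probe set that stood for Hoxb5, the member with 2, was taken by its higher mean over all arrays. The rule itself was chosen with earlier results of these data known.

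Whole lungs of mouse embryos were profiled at E14.5 on single-channel Affymetrix arrays, with 4 specimens of each of 3 genotypes. Yy1 mutants were Yy1flox/flox;Shh+/Cre, Dicer mutants were Dicerflox/flox;Shh+/Cre, and controls were Shh+/Cre. The Cre allele, and with it 1 altered copy of Shh, was therefore shared by all 3 groups. Cre expressed from the Shh locus acts in the lung epithelium, whereas the RNA also came from mesenchyme, vessels and blood. The labels do not say whether a specimen was 1 embryo, nor whether specimens came from separate litters, so the p-values measure only the spread between these specimens.

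Hox genes encode homeodomain transcription factors that lie side by side in clusters. Genes at the low-numbered end of a cluster are active further forward along the body and earlier than genes at the high-numbered end, an order called collinearity. In the lung, Hox genes of low and middle paralog number are expressed mainly in the mesenchyme, and mice that lack the paralog group 5 genes have defects of the trachea and of lung branching. Yy1 is a zinc finger factor related to the fly protein Pleiohomeotic, which recruits Polycomb complexes that silence Hox genes in the fly. Dicer cuts microRNA precursors, and the Hox clusters hold genes of the miR-10 and miR-196 families.

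The targeted genes were first checked in the whole-lung RNA. Yy1 read 8.70 to 8.95 on the log2 scale in Yy1 mutants and 8.98 to 9.14 in controls, and its difference of -0.19 was not called (limma, adjusted p = 0.125). Dicer1 read 8.03 to 8.27 in Dicer mutants and 8.63 to 9.02 in controls, a called difference of -0.61 (limma, adjusted p = 0.00127). The Y-linked gene Eif2s3y read 7.99 in Yy1 mutant 2, 5.92 in Yy1 mutant 3 and 7.84 in Dicer mutant 4, and 3.73 to 4.48 on the other arrays, so the counts below are also given without these 3 arrays. The array medians lay between 5.99 and 6.08.

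Levels are log2 intensities, given as the mean and standard deviation (SD) over 4 arrays. They compare one gene between groups and not one gene with another. In Yy1 mutants 5 Hox genes rose against controls, Hoxa2, Hoxa3, Hoxb3, Hoxb4 and Hoxb6, and 0 fell. In Dicer mutants 1 Hox gene rose, Hoxa2, and 0 fell. Between the mutants 4 genes of the Hoxb cluster were higher in Yy1 mutants than in Dicer mutants, Hoxb3, Hoxb4, Hoxb5 and Hoxb6, and 0 were lower. All of these differences were below 1 on the log2 scale, and the largest fold over controls was 1.41, for Hoxa2 in Yy1 mutants. In bulk RNA, more cells of a type and more RNA per cell cannot be told apart.

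**Figure D1:**
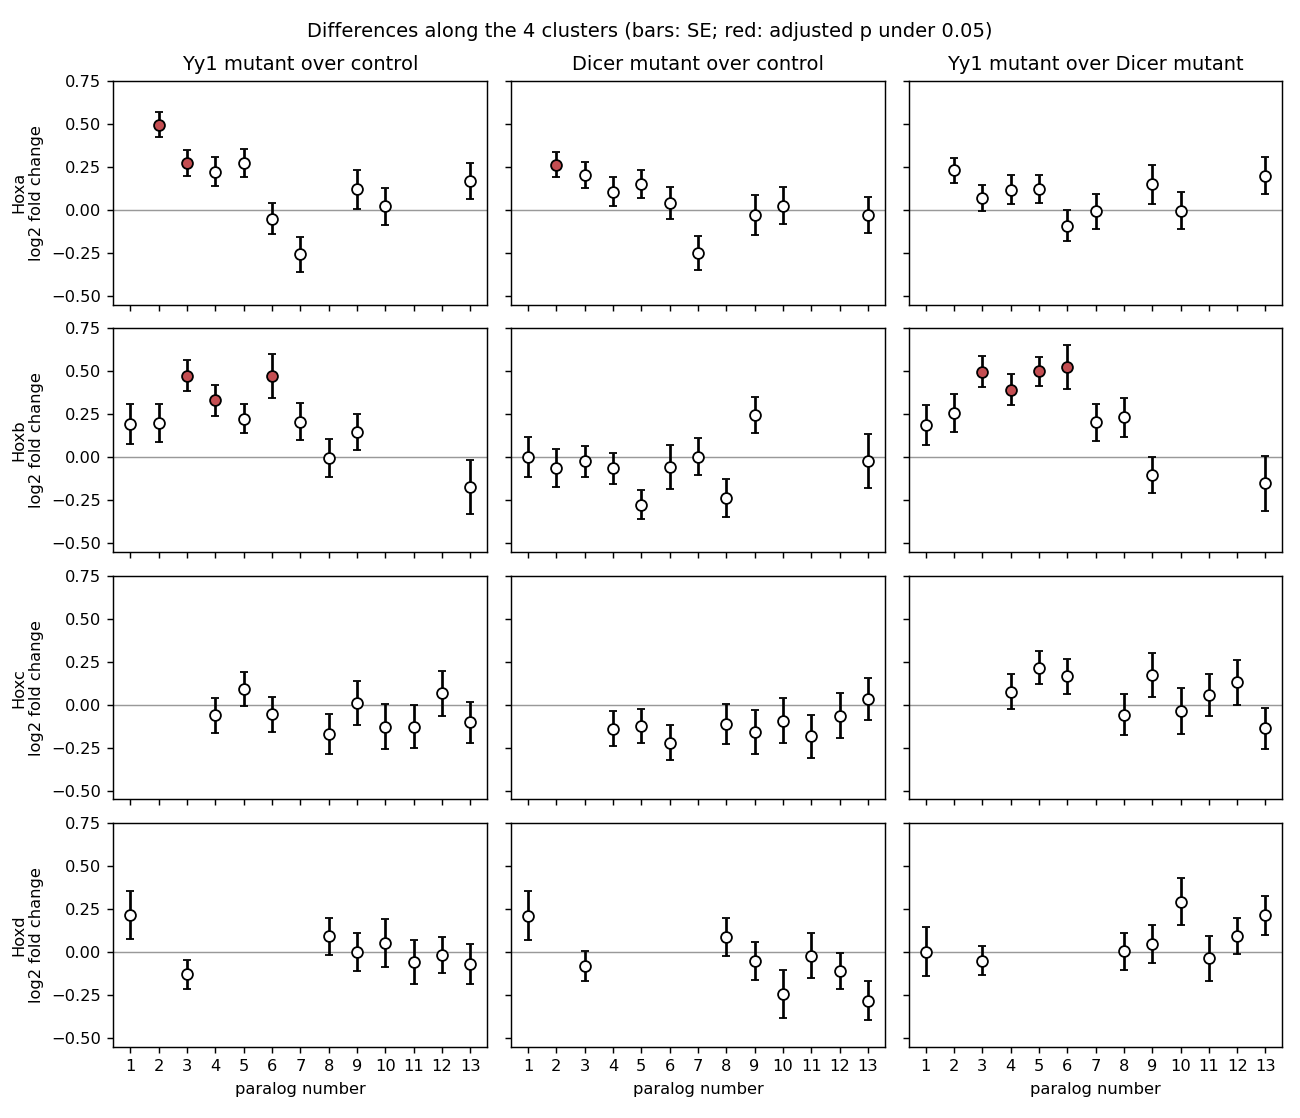
Log2 fold change with its standard error (vertical axis) by paralog number (horizontal axis) for the 36 Hox genes, 1 row of panels per cluster and 1 column per comparison; red marks an adjusted p under 0.05. Called genes are Hoxa2, Hoxa3, Hoxb3, Hoxb4 and Hoxb6 for Yy1 mutants over controls, Hoxa2 for Dicer mutants over controls, and Hoxb3 to Hoxb6 for Yy1 mutants over Dicer mutants.

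Across all genes, limma with Benjamini-Hochberg adjustment called 2.77% higher and 3.84% lower in Yy1 mutants than in controls. The 5 Hox genes called higher were 13.9% of the 36 members. Of the 36 members, 8 were higher and 1 was lower at an unadjusted p under 0.05 (limma). The share of all genes at that unadjusted threshold was not computed, so this count has no background beside it. The median log2 fold change over the members was 0.06, against 0.00161 over all genes, and 22 members (61.1%) had a difference above 0, against 50.5% of all genes. The 31 members that were not called had differences from -0.26 to 0.27.

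Hoxa2, which acts in the hindbrain and second pharyngeal arch, read 8.66, 8.49, 8.54 and 8.53 in the 4 Yy1 mutants and 8.18, 8.06, 7.94 and 8.06 in the 4 controls. Every Yy1 mutant lay above every control. The log2 fold change was 0.50 with a standard error (SE) of 0.0734 (limma, adjusted p = 0.000955), and the call held in 22 of 22 alternative analyses. The promoter of Hoxa2 is shown because this is the member with the smallest adjusted p in that comparison. It covers chr6:52164782-52165081 on the minus strand (RefSeq, GRCm38.p6), 250 bases before to 50 bases after the annotated start, and capitals mark a match to the Hox-Pbx motif.
Hoxa2 promoter: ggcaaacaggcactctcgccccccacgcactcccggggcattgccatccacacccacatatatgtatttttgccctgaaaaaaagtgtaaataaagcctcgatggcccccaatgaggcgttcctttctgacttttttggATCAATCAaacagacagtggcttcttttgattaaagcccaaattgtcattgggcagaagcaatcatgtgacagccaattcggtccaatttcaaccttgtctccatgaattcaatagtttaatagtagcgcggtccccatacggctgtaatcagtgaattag

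Hoxa3, required in the mouse for thymus and parathyroid development, read 7.40, 7.18, 7.40 and 7.31 in Yy1 mutants and 7.14, 7.13, 7.03 and 6.91 in controls. The groups did not overlap, and the difference was 0.27 (SE 0.0755, limma, adjusted p = 0.0473). This call lay close to the threshold and held in 6 of 22 alternatives. When single arrays were left out it held only without Yy1 mutant 2, and the adjusted p ranged from 0.0251 to 0.135. The next gene of the cluster, Hoxa4, had a mean of 8.22 ± 0.15 in Yy1 mutants and 7.996 ± 0.13 in controls (SD, n = 4 each), a difference of 0.22 that was not called.

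In the Hoxb cluster, Hoxb3 read 8.63, 8.37, 8.57 and 8.41 in Yy1 mutants and 8.16, 7.88, 7.94 and 8.09 in controls. No Yy1 mutant was as low as the highest control, and Hoxb3 rose by 0.48 (SE 0.0888, limma, adjusted p = 0.00494). The call held without any single array, but not without the 3 arrays of raised Y-linked signal, where the difference was 0.50 with an adjusted p of 0.0548. Hoxb3 patterns the hindbrain and pharyngeal region together with its paralogs.

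Hoxb4, known for its action in blood stem cells, read 8.29, 8.05, 8.07 and 8.22 in Yy1 mutants and 7.85, 7.69, 7.76 and 7.99 in controls. The groups did not overlap, and the difference was 0.33 (SE 0.0901, limma, adjusted p = 0.0433). The call held in 10 of 22 alternatives and was lost without control 1, 2 or 3, Yy1 mutant 1, 3 or 4, or Dicer mutant 1 or 4, with adjusted p values of 0.0254 to 0.131 over all single omissions. The Hoxb4 promoter, at chr11:96318017-96318316 on the plus strand (RefSeq, GRCm38.p6), is shown because no promoter was at hand for the other called Hoxb genes. Neither motif searched was in it.
Hoxb4 promoter: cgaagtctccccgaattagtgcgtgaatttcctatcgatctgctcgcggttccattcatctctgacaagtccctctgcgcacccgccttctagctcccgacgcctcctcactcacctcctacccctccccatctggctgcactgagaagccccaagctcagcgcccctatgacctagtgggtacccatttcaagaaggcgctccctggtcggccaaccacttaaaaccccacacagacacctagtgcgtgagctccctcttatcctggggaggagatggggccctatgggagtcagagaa

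Hoxb6 read 7.28, 7.01, 7.24 and 7.40 in Yy1 mutants and 7.03, 6.44, 6.84 and 6.73 in controls. Control 1 lay just above Yy1 mutant 2, so these groups overlapped although the gene was called, with a difference of 0.47 (SE 0.128, limma, adjusted p = 0.0433). The call held in 9 of 22 alternatives. It was lost without control 2, 3 or 4, Yy1 mutant 1, 3 or 4, or Dicer mutant 1 or 4, with adjusted p values of 0.0244 to 0.121 over the 12 single omissions.

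**Figure D2:**
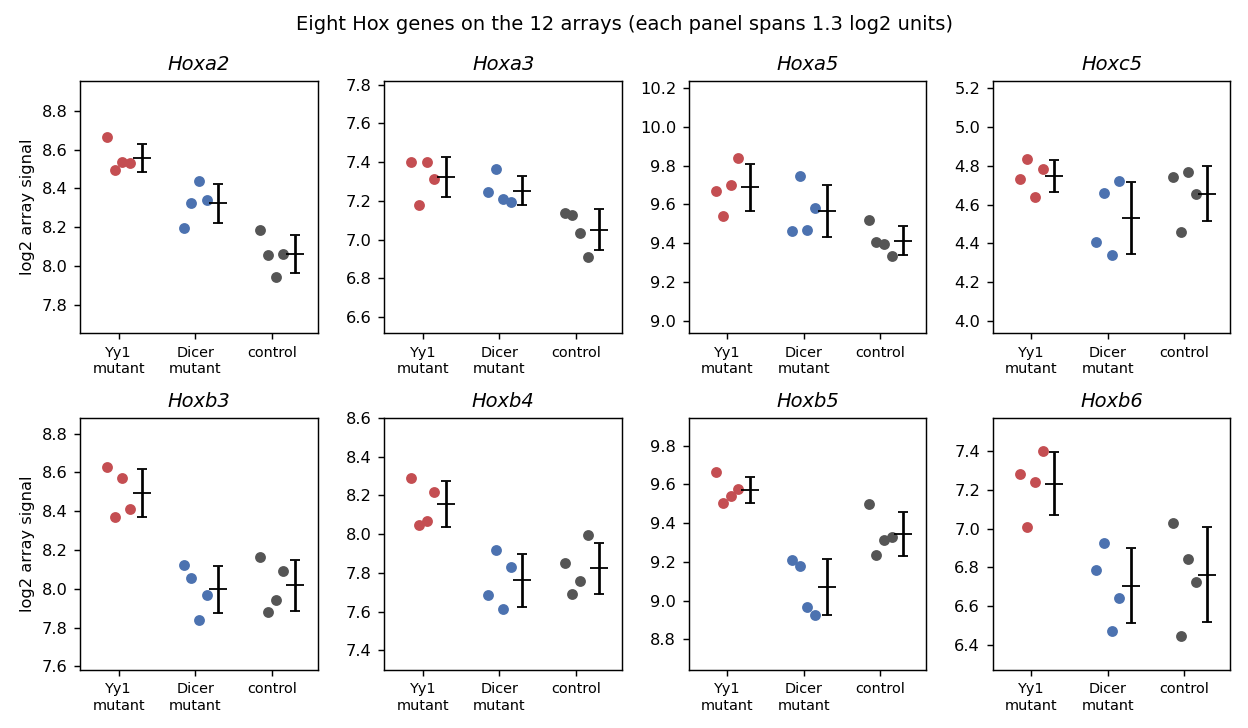
Log2 intensity (vertical axis) of Hoxa2, Hoxa3, Hoxa5, Hoxc5, Hoxb3, Hoxb4, Hoxb5 and Hoxb6 by genotype, Yy1 mutant, Dicer mutant and control from left to right; points are single arrays and bars give the mean and SD of 4. The Yy1 mutants lie above the controls in all panels except Hoxb6 and Hoxc5, where the groups overlap, and the Dicer mutants lie above the controls for Hoxa2 and Hoxa3 and below them for Hoxb5.

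The count of 5 depended on the arrays and on the processing. It was 3 without control 1 or control 4, and 2 without control 2, control 3, Yy1 mutant 1, Yy1 mutant 3, Yy1 mutant 4, Dicer mutant 1 or Dicer mutant 4. Without the 3 arrays of raised Y-linked signal, 1 member was called, Hoxa2. Over all genes the number called higher changed as well, to 245 without these 3 arrays and to between 401 and 621 when single arrays were left out, against 614 on all 12 arrays.

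The paralog group 5 genes were set apart because of their known place in lung development. Hoxa5, a mesenchymal gene required for normal trachea and lung in the mouse, read 9.67, 9.54, 9.70 and 9.84 in Yy1 mutants and 9.52, 9.41, 9.40 and 9.33 in controls. Every Yy1 mutant lay above every control, but the difference of 0.27 (SE 0.0829) was not called (limma, adjusted p = 0.0695), and it was called in 5 of 22 alternatives. Hoxb5, whose product takes part in airway branching in the mouse, read 9.66, 9.51, 9.54 and 9.57 in Yy1 mutants and 9.50, 9.23, 9.32 and 9.33 in controls. These groups too did not overlap, by a narrow margin, and the difference of 0.23 (SE 0.0828) was not called (limma, adjusted p = 0.142). Hoxc5 averaged 4.75 ± 0.08 in Yy1 mutants and 4.66 ± 0.14 in controls (SD, n = 4 each), a difference of 0.09 (SE 0.0973, limma, adjusted p = 0.684).

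By position, the called genes lay at the low-numbered end and in the middle of Hoxa and Hoxb. In Yy1 mutants against controls, 3 of 7 members of paralog groups 1 to 3, 2 of 14 of groups 4 to 8 and 0 of 15 of groups 9 to 13 were called higher. The median log2 fold changes of these segments were 0.22, 0.09 and 0.00. Of the 9 genes Hoxb1 to Hoxb9, 8 had a difference above 0 in Yy1 mutants and 3 in Dicer mutants. All 4 genes Hoxa2 to Hoxa5 had one above 0 in both mutants. These stretches were chosen with the values known, and members beside them went the other way in Yy1 mutants, with differences of -0.05 for Hoxa6, -0.26 for Hoxa7 and -0.17 for Hoxb13, none of them called. The cluster medians in Yy1 mutants were 0.17 for Hoxa, 0.20 for Hoxb, -0.06 for Hoxc and -0.01 for Hoxd. In Dicer mutants, which share the controls, the segment medians were 0.00, -0.09 and -0.05, and the cluster medians were 0.04 for Hoxa, -0.04 for Hoxb, -0.12 for Hoxc and -0.06 for Hoxd. Across the 36 genes, log2 fold change and paralog number had a Pearson r of -0.54 and a Spearman rho of -0.55 in Yy1 mutants, and of -0.32 and -0.26 in Dicer mutants. Within Hoxa alone (9 genes) rho was -0.65 in Yy1 mutants and -0.87 in Dicer mutants, and within Hoxb (10 genes) it was -0.52 in Yy1 mutants and 0.21 in Dicer mutants. These values describe genes measured on the same arrays and carry no test, and signal differed along the clusters too, as given below.

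In Dicer mutants against controls, 4.78% of all genes were called higher and 3.97% lower, and the 1 Hox gene called higher was 2.78% of the members, below that background. At an unadjusted p under 0.05 (limma), 3 members were higher and 4 were lower, again without the share of all genes for comparison. The median over the members was -0.05, against -0.03 over all genes. Of the members, 12 (33.3%) had a difference above 0, against 42.8% of all genes. The 35 members that were not called ranged from -0.28 to 0.25.

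Hoxa2 read 8.19, 8.33, 8.44 and 8.34 in Dicer mutants, against the control values of 7.94 to 8.18 given above. The groups touched but did not overlap, and Hoxa2 was 1.20-fold higher, a log2 difference of 0.26 (SE 0.0734, limma, adjusted p = 0.0401). The call held in 9 of 22 alternatives. It was lost without control 2, 3 or 4, Yy1 mutant 3 or 4, or Dicer mutant 2, 3 or 4, with adjusted p values of 0.0252 to 0.122 over the 12 single omissions. Hoxa3 read 7.25, 7.36, 7.21 and 7.19 in Dicer mutants, all above the controls, with a difference of 0.20 that was not called (limma, adjusted p = 0.125). Hoxa5 read 9.46, 9.75, 9.47 and 9.58 in Dicer mutants and overlapped the controls (difference 0.15, limma, adjusted p = 0.309).

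Hoxb5 read 9.21, 9.18, 8.97 and 8.92 in Dicer mutants. All 4 lay below the controls, the lowest of which was 9.23, and the difference of -0.27 (SE 0.0828) was not called (limma, adjusted p = 0.0575). It was called without control 2 or without Dicer mutant 1, with a lowest adjusted p of 0.0376 over the single omissions. A Hoxb5 probe set with lower signal gave a difference of -0.12 in Dicer mutants and 0.17 in Yy1 mutants, in the same directions, and was called in neither when every probe set was tested. The other Hoxb genes called in Yy1 mutants overlapped the controls in Dicer mutants. Hoxb3 read 8.12, 8.05, 7.84 and 7.97 in Dicer mutants, a difference of -0.02 (SE 0.0888, limma, adjusted p = 0.915). Hoxb4 read 7.69, 7.92, 7.61 and 7.83 in Dicer mutants, a difference of -0.06 (SE 0.0901, limma, adjusted p = 0.750). Hoxb6 read 6.78, 6.92, 6.47 and 6.64 in Dicer mutants, a difference of -0.06 (SE 0.128, limma, adjusted p = 0.847). Hoxc5 averaged 4.53 ± 0.19 in Dicer mutants (SD, n = 4), a difference of -0.12 (SE 0.0973, limma, adjusted p = 0.508).

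The direct comparison of the mutants does not use the control levels. In it 1.57% of all genes were called higher in Yy1 mutants than in Dicer mutants and 3.39% lower, and the 4 Hox genes called higher were 11.1% of the members. At an unadjusted p under 0.05 (limma), 7 members were higher and 0 lower, and here too the share of all genes was not computed. Hoxb5 differed by 0.50 (SE 0.0828, limma, adjusted p = 0.00265), and Hoxb3 by 0.50 (SE 0.0888, limma, adjusted p = 0.00445). Hoxb4 differed by 0.39 (SE 0.0901, limma, adjusted p = 0.0223), and Hoxb6 by 0.53 (SE 0.128, limma, adjusted p = 0.0309). For all 4 genes, each Yy1 mutant lay above each Dicer mutant. The genes were picked by their calls on these same arrays, so this separation adds no support. The share of all genes that separate in this way was not computed. The Hoxb5 probe set with lower signal had a smaller difference of 0.29 between the mutants. It was not called when every probe set was tested (limma, adjusted p = 0.104).

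The calls of Hoxb3 and Hoxb5 between the mutants held without any single array. The count was 2 without Yy1 mutant 1, Yy1 mutant 4 or Dicer mutant 3, where Hoxb4 and Hoxb6 were lost, and it was 1 without the 3 arrays of raised Y-linked signal, where Hoxb5 remained (adjusted p = 0.0495). Over all genes 84 were called higher without these 3 arrays, against 348 on all 12. Hoxb4 was also lost without Dicer mutant 1, and Hoxb6 without Yy1 mutant 3 or Dicer mutant 4; their adjusted p values reached 0.0759 and 0.0969. Hoxa2 differed by 0.23 (limma, adjusted p = 0.0992) without overlap, Hoxa3 by 0.07 (adjusted p = 0.691), Hoxa5 by 0.12 (adjusted p = 0.486) and Hoxc5 by 0.22 (adjusted p = 0.261). The cluster medians of this difference were 0.12 for Hoxa, 0.25 for Hoxb, 0.08 for Hoxc and 0.03 for Hoxd, against 0.03 over all genes.

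**Figure D3:**
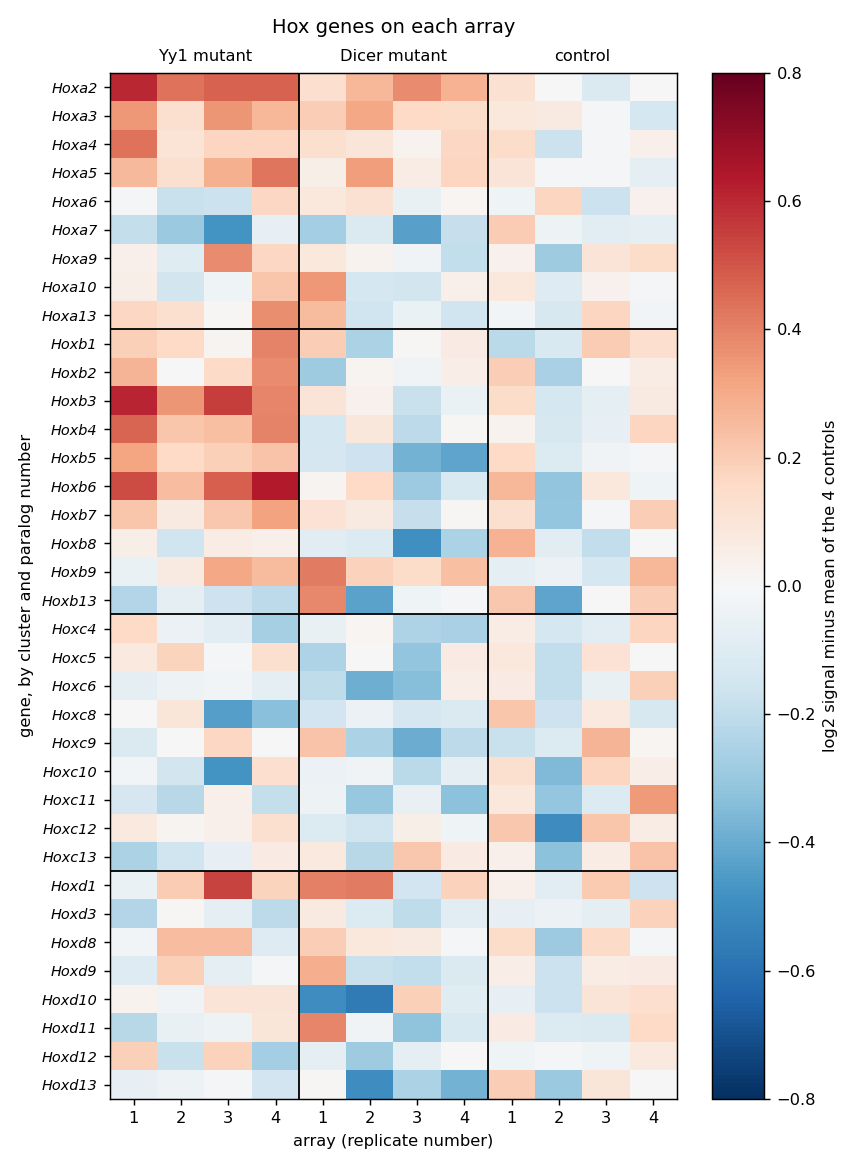
Log2 intensity of the 36 Hox genes (rows, by cluster and paralog number) on the 12 arrays (columns, Yy1 mutants, Dicer mutants, then controls), each minus the mean of the 4 controls, on a colour scale from -0.8 to 0.8. Hoxa2 to Hoxa5 and Hoxb1 to Hoxb7 are mostly above the control mean in the Yy1 mutants, and control 2 is below it for 34 of 36 genes.

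The remaining members had these mean levels, each ± SD over 4 arrays, and none was called in any of the 3 comparisons. In Hoxa, Hoxa6 averaged 8.14 ± 0.16 in Yy1 mutants, 8.23 ± 0.08 in Dicer mutants and 8.19 ± 0.14 in controls. Hoxa7 averaged 6.54 ± 0.18 in Yy1 mutants, 6.55 ± 0.14 in Dicer mutants and 6.80 ± 0.14 in controls. Its difference of -0.26 in Yy1 mutants, the lowest of any member there, was not called and the groups overlapped (limma, adjusted p = 0.171). In Dicer mutants the difference was -0.25, and all 4 lay below the controls without a call (limma, adjusted p = 0.159). Hoxa4 averaged 8.10 ± 0.06 in Dicer mutants. Hoxa9, Hoxa10 and Hoxa13, genes of the high-numbered end that pattern limbs and the posterior trunk, averaged 4.92, 5.03 and 5.69 in controls, and their differences in either mutant lay within -0.03 and 0.17.

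In Hoxb, Hoxb1 averaged 6.43 ± 0.16 in Yy1 mutants, 6.24 ± 0.19 in Dicer mutants and 6.24 ± 0.20 in controls. Hoxb2 averaged 7.58 ± 0.16 in Yy1 mutants, 7.32 ± 0.15 in Dicer mutants and 7.38 ± 0.19 in controls. Their differences in Yy1 mutants were 0.19 and 0.20, and the groups overlapped. Hoxb7 averaged 5.93 in Yy1 mutants, 5.72 in Dicer mutants and 5.72 in controls, and Hoxb8 averaged 5.88, 5.64 and 5.88 in the same order. Hoxb9 averaged 6.05 in Yy1 mutants, 6.15 in Dicer mutants and 5.91 in controls, and Hoxb13 averaged 5.31, 5.46 and 5.48 in that order.

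In Hoxc, control means were 5.68 for Hoxc4, 4.73 for Hoxc6, 5.21 for Hoxc8, 5.38 for Hoxc9, 5.72 for Hoxc10, 5.27 for Hoxc11, 5.61 for Hoxc12 and 5.80 for Hoxc13. Differences of the Hoxc genes ran from -0.17 to 0.09 in Yy1 mutants and from -0.22 to 0.03 in Dicer mutants. In Hoxd, control means were 5.17 for Hoxd1, 5.40 for Hoxd3, 6.04 for Hoxd8, 4.88 for Hoxd9, 6.0004 for Hoxd10, 5.31 for Hoxd11, 5.81 for Hoxd12 and 5.45 for Hoxd13. Differences of the Hoxd genes ran from -0.13 to 0.22 in Yy1 mutants and from -0.28 to 0.21 in Dicer mutants. Of the 36 members, 13 were among the dimmest 30% of all genes by mean, 2 in Hoxa, 1 in Hoxb, 5 in Hoxc and 5 in Hoxd. By position they were Hoxd1 and Hoxd3 in paralog groups 1 to 3, and Hoxc5, Hoxc6 and Hoxc8 in groups 4 to 8. In groups 9 to 13 they were Hoxa9, Hoxa10, Hoxb13, Hoxc9, Hoxc11, Hoxd9, Hoxd11 and Hoxd13. No gene called in any comparison was among the 13. A difference in these 13 genes may not have been detectable at that signal.

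Markers of other cells moved with the genotypes. Of 19 lung mesenchyme markers, 8 rose and 0 fell in Yy1 mutants, and 7 rose and 0 fell in Dicer mutants. Their log2 summed intensity was 14.15 to 14.29 in Yy1 mutants, 14.06 to 14.27 in Dicer mutants and 13.92 to 13.97 in controls. Of 17 lung epithelium markers, 1 rose and 13 fell in Yy1 mutants, and 2 rose and 11 fell in Dicer mutants, and their log2 summed intensity was 12.74 to 13.10 in Yy1 mutants, 13.52 to 13.74 in Dicer mutants and 13.45 to 13.78 in controls. Between the mutants, 4 mesenchyme markers were higher and 0 lower in Yy1 mutants than in Dicer mutants, and 2 epithelium markers were higher and 11 lower. The 4 mesenchyme markers, named after their values were seen, were Pdgfra (0.57), Osr1 (0.50), Prrx1 (0.40) and Tbx5 (0.23), as log2 differences. Against controls, Pdgfra differed by 0.67 in Yy1 mutants and 0.10 in Dicer mutants, Osr1 by 0.45 and -0.05, and Prrx1 by 0.46 and 0.07, and these 3 were called in Yy1 mutants alone. Tbx5 was called in neither. The part of these shifts in the Hox values was not tested.

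Counts for the other marker lists are given for Yy1 mutants and then for Dicer mutants, each against controls. Of 11 airway smooth muscle markers, 8 fell in Yy1 mutants and 9 in Dicer mutants. Of 9 macrophage markers, 8 rose in each mutant. Of 9 endothelium markers, 1 rose in Yy1 mutants and 8 rose in Dicer mutants. Of 8 mesothelium markers, 1 rose and 1 fell in Yy1 mutants, and 3 rose and 1 fell in Dicer mutants. Of 7 neural markers, 1 fell in each mutant. Of 8 limb bud and trunk markers, 1 rose in Yy1 mutants and 0 were called in Dicer mutants, and of 4 markers of gut and stomach mesenchyme 0 were called in either (limma). At an unadjusted p under 0.05 the gut and stomach list had 1 gene in Yy1 mutants and 3 in Dicer mutants, and the limb bud and trunk list had 0 in Dicer mutants. In Yy1 mutants against Dicer mutants, 7 endothelium, 3 mesothelium and 1 smooth muscle markers were lower and 1 limb bud and trunk marker was higher.

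Hox proteins bind DNA with TALE homeodomain partners of the Pbx, Meis and Pknox families. Of 9 such genes measured, 1 rose in Yy1 mutants and 0 were called in Dicer mutants, where 1 had an unadjusted p under 0.05. The gene was Meis1, which averaged 10.63 in Yy1 mutants and 10.24 in controls, a difference of 0.38 (SE 0.0733, limma, adjusted p = 0.00571) that was called in 22 of 22 alternatives. In Dicer mutants Meis1 averaged 10.44, a difference of 0.20 that was not called (limma, adjusted p = 0.122). Of 6 Cdx and ParaHox genes, relatives of the Hox clusters that include activators of posterior Hox genes, 0 were called in either mutant by limma, and 0 had an unadjusted p under 0.05.

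Retinoic acid activates Hox genes at the low-numbered end through retinoic acid receptors. Of 17 genes of retinoid synthesis, breakdown and signalling, 0 rose and 1 fell in Yy1 mutants, and 0 rose and 4 fell in Dicer mutants. Aldh1a1, a retinaldehyde dehydrogenase, had a log2 fold change of -1.69 in Yy1 mutants (limma, adjusted p = 6.14e-06) and of -1.92 in Dicer mutants (adjusted p = 2.54e-06). In Dicer mutants the receptor genes Rarb and Rarg also fell, with log2 fold changes of -0.46 (limma, adjusted p = 0.00225) and -0.41 (adjusted p = 0.00701), as did Stra6, which encodes a receptor for retinol uptake, with -0.75 (adjusted p = 0.00877). The Rarg call was lost in 1 of 22 alternatives. In Yy1 mutants Rarb had a difference of -0.19 (adjusted p = 0.203), Rarg of -0.11 (adjusted p = 0.551) and Stra6 of -0.40 (adjusted p = 0.173), and none was called.

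Polycomb complexes silence Hox genes, and Trithorax group proteins keep them active. Of 38 such genes measured, 0 were called in Yy1 mutants, where the list median was -0.07 and 6 had an unadjusted p under 0.05 (limma). In Dicer mutants 1 rose and 2 fell, the list median was -0.03 and 7 had an unadjusted p under 0.05 (limma). Ezh1, a histone methyltransferase of Polycomb repressive complex 2, rose by 0.37 in Dicer mutants and was called in 22 of 22 alternatives. Phc1 and Phc2, subunits of Polycomb repressive complex 1, fell, with log2 fold changes of -0.24, called in 14 of 22 alternatives, and -0.27, called in 15 of 22. Between the mutants, 1 gene of the list was higher and 1 lower in Yy1 mutants than in Dicer mutants. Kdm6b differed by 0.30 (limma, adjusted p = 0.0180) and Ezh1 by -0.29 (limma, adjusted p = 0.0154).

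**Figure D4:**
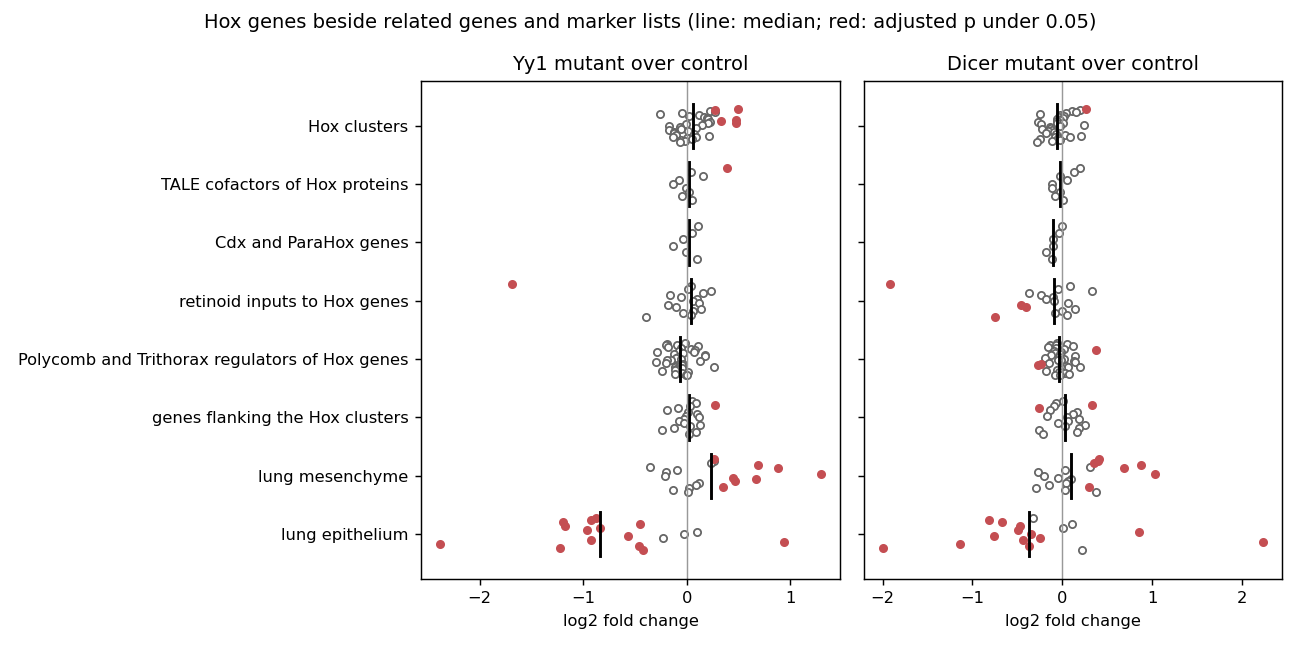
Log2 fold change over controls of the 36 Hox genes and of the genes of 7 related lists, in Yy1 mutants and in Dicer mutants; each point is a gene and called genes are marked. Called genes are few in these lists apart from the lung mesenchyme and lung epithelium markers, and Aldh1a1 has the lowest values of the retinoid list.

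Within the clusters, 7 antisense and other transcripts were measured, among them Hotair and the Evx genes at the cluster ends, and 0 were called in either mutant. At an unadjusted p under 0.05 (limma) there was 1 in Yy1 mutants and 0 in Dicer mutants. The antisense transcript Hoxaas3, of the Hoxa cluster, had a difference of 0.32 in Yy1 mutants (limma, adjusted p = 0.133) and of 0.07 in Dicer mutants. Whether the array reads strand apart at each probe set was not examined. Of 19 genes that flank the clusters, 1 rose in Yy1 mutants, Calcoco1 (difference 0.28, called in 14 of 22 alternatives). In Dicer mutants Calcoco1 rose by 0.33, and Cbx1, a heterochromatin protein gene beside Hoxb, fell by 0.26, a call that held in 10 of 22 alternatives.

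The microRNAs of the clusters are shown because Dicer makes their mature forms and because they fall into 2 seed groups. Sequences are the mature 5p forms in RefSeq (GRCm38.p6), and capitals mark the seed, bases 2 to 8.
mmu-miR-10a-5p: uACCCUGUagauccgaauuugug
mmu-miR-10b-5p: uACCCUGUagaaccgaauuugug
mmu-miR-196a-5p: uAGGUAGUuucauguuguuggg
mmu-miR-196b-5p: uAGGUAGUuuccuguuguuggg
miR-10a lies in Hoxb at chr11:96317186-96317208 on the plus strand, and miR-10b lies in Hoxd at chr2:74726074-74726096 on the plus strand. miR-196a is encoded in Hoxb at chr11:96265187-96265208 and in Hoxc at chr15:102973365-102973386, both on the plus strand, and miR-196b lies in Hoxa at chr6:52230129-52230150 on the minus strand.

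The arrays did not measure mature microRNAs. Probe sets of 4 microRNA genes, Mir10b, Mir196a-1, Mir196a-2 and Mir615, were listed, and 0 were called in either mutant by limma, with 1 in Yy1 mutants and 0 in Dicer mutants at an unadjusted p under 0.05. Mir196a-1 averaged 4.96 in Yy1 mutants, 5.37 in Dicer mutants and 5.27 in controls, and Mir10b averaged 2.41, 2.33 and 2.41 in the same order. Hoxb8, whose transcript is cut under the guidance of miR-196 in the mouse, had a difference of -0.24 in Dicer mutants that was not called (limma, adjusted p = 0.230). The other Hox genes of paralog group 8, Hoxc8 and Hoxd8, had differences of -0.11 and 0.09 in Dicer mutants.

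RefSeq promoters, 22 in number, were at hand for 20 of the 36 members. They were searched on both strands for a Yy1 motif, AANATGGC with GCCATNTT as its other strand, and a Hox-Pbx motif, TGATNNAT with ATNNATCA as its other strand. The Yy1 motif was found for 1 of the 20 members, Hoxd10, and in 6.05% of 32851 mouse promoters of this length. The Hox-Pbx motif was found for 4 members, Hoxa2, Hoxb1, Hoxb8 and Hoxd11, and in 8.85% of the promoters. Members are counted here by gene and the percentages by promoter, so they are not like for like. Hoxd11, for example, had a match in only 1 of its promoters. These are matches of letters in a short window and say nothing of binding.

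Of 12 genes listed as downstream of Hoxa5 or Hoxb5 in mouse lung, 1 rose and 6 fell in Yy1 mutants (median -0.35), and 3 rose and 5 fell in Dicer mutants (median -0.05). The list holds epithelial genes as well, and its members were chosen with earlier results of these data known. The gene that rose in Yy1 mutants was Fgf10, with a log2 fold change of 0.88 (limma, adjusted p = 0.000956). Fgf10 averaged 8.96 in Yy1 mutants, 8.77 in Dicer mutants and 8.08 in controls. Foxa2 was among those that fell in Yy1 mutants, with -0.96 (limma, adjusted p = 2.41e-05). Its averages were 7.79, 8.25 and 8.75 in the same order. Wnt2 and Wnt2b, mesenchymal ligands that specify the lung, were called in neither mutant, with differences of -0.13 and 0.01 in Yy1 mutants and 0.03 and 0.38 in Dicer mutants.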

How the data were processed

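Total RNA of whole embryonic lungs was labelled with biotin and hybridised to Affymetrix arrays, per the labels. The authors deposited log2 intensities per probe set. Base 2 was taken from their range, 1.10 to 13.6; how probes were summarised and arrays normalised is not given in the sources used. Of 41345 probe sets, 23521 had exactly 1 gene symbol in the platform annotation. The probe set with the highest mean stood for a gene, which gave 22180 genes, with no filter and no further normalisation. The 3 genotypes were fitted in 1 model with limma 3.58.1 in R 4.3.3 (9 residual degrees of freedom, two-sided), and calls were made at 0.05 after Benjamini-Hochberg adjustment across the 22180 genes of each comparison. Python 3.11.15, pandas 2.3.3, numpy 2.4.6 and matplotlib 3.10.9 made the tables and plots. The number of arrays limits the precision.

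Members, gene lists and tests were chosen with earlier results of these data known. Differences were given for every member called in any comparison and for paralog group 5. They were also given for genes called against controls in the TALE, retinoid, Polycomb and Trithorax, and flanking lists. Kdm6b, called only between the mutants, was added after its value was seen. The other lists were given mainly as counts. In the list of downstream genes, Fgf10, Foxa2, Wnt2 and Wnt2b were chosen after their values were seen. There were 22 alternatives. Values were quantile normalised or set to equal array medians, the dimmest 30% were dropped, probe sets were averaged per gene or all tested, the prior was made robust with a trend, and 2 genotypes were fitted alone. Array weights or a replicate block were added, 3 arrays of raised Y-linked signal were omitted, and each of the 12 arrays was left out. For genes of the related lists they were added after the values were seen. Sequences and gene positions are from RefSeq tables of GRCm38.p6, which is not known to be the build of the arrays. Probe sets with several symbols, or with none, were not used.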

Additional observations from a re-analysis of the deposited data

Results flagged for a closer look

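In 4 of 108 groups of 4 arrays, a Hox gene had 1 array apart from the other 3. Chance alone sets apart about 1 in 20 such groups. Hoxb8 read 5.72 in Yy1 mutant 2 and 5.92 to 5.94 in the other Yy1 mutants. Hoxa7 read 7.00 in control 1 and 6.71 to 6.76 in the other controls. Hoxd3 read 5.58 in control 4 and 5.33 to 5.35 in the other controls. Hoxd9 read 4.71 in control 2 and 4.93 to 4.95 in the other controls.

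Differences between the mutants, Yy1 mutant minus Dicer mutant and tested with limma, set apart 4 Hoxb genes. They were 0.50 for Hoxb3, 0.39 for Hoxb4, 0.50 for Hoxb5 and 0.53 for Hoxb6.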

How the results depend on the processing

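In the comparison of Yy1 mutants with controls, 5 Hox genes were called higher. There were 2 with equal array medians, 2 when every probe set was tested, 2 in a fit of only the 2 genotypes, 3 with the replicate block and 1 without the 3 arrays of raised Y-linked signal, and 2 to 6 when single arrays were left out. In Dicer mutants over controls the count of 1 higher was 0 with equal array medians, with every probe set tested, with 2 genotypes, with the replicate block and without the 3 arrays, and 0 to 1 with single arrays left out. The count of 0 lower in Dicer mutants was 1 with quantile normalisation, the dimmest genes removed, the trended robust prior or the replicate block, 2 with array weights, and 0 to 2 with single arrays left out. Between the mutants the count of 4 higher was 2 with every probe set tested and 1 without the 3 arrays, and 2 to 4 with single arrays left out. Over all genes, the number called higher in Yy1 mutants went from 614 to 428 with equal array medians. It was 483 with 2 genotypes, 543 with the replicate block and 599 of 41345 with every probe set. In Dicer mutants it went from 1060 to 907, 872, 1009 and 982 of 41345 in the same order, and to 578 without the 3 arrays. Between the mutants it went from 348 to 196 of 41345 with every probe set. Some alternatives had fewer samples or more tests, and the cause of the changed counts was not tested. In Dicer mutants Hoxb3 ranged from -0.0690 to 0.0302 and Hoxb6 from -0.161 to 0.0335 with single arrays left out, and so changed sign. Of the values of 24 differences of 8 genes under the alternatives, 438 kept their direction and side of the threshold, 69 lost a call, 13 gained one and 5 turned sign.

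The deviations of same-numbered arrays correlated at -0.161 to 0.190, and those of differently numbered arrays at -0.259 to 0.214. These values show no pairing by replicate number, but with 4 arrays a genotype they cannot exclude a shared litter or batch. The replicate block (3 genes higher in Yy1 mutants) is therefore only an alternative. With 4 arrays a genotype, differences of about 0.3 lay at the edge of what was called, and 13 members were among the dimmest 30% of genes.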

Other observations

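Hox genes tended to stand together on some arrays. The number of the 36 genes above the mean of the 4 controls was 20, 19, 22 and 24 in the 4 Yy1 mutants and 22, 16, 10 and 15 in the 4 Dicer mutants. Among the controls themselves it was 28, 2, 18 and 24. In control 2 the median over the Hox genes was -0.14 relative to the control mean, while the median of all genes on that array was 6.46, against 6.47 to 6.50 in the other controls. In the Dicer mutants the array with the lowest Hox median, at -0.14, was Dicer mutant 3.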
